A study of Mus musculus with 10 samples.

Results

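The 10 imprinted genes described here, which have known roles in growth and development, were followed across virus, passage and assay in cultured mouse neural stem cells. They are Igf2, Dlk1, Nnat, Mest, Peg3 and Ndn, which are expressed from the paternal allele, and H19, Meg3, Rian and Grb10, which are expressed from the maternal allele. Members were chosen by gene symbol, and all 10 were found among the 17919 genes of the deposited tables. The cells were taken at embryonic day 10 from the ventral midbrain of mice of the ICR strain. They were transduced with a lentivirus for Lin28a or with a mock control virus and were passaged at intervals of 4 days. Poly(A) RNA was sequenced in Lin28a and control cells at passage 3 (P3) and at passage 1 (P1), small RNA in the same 4 conditions, and polysome RNA in Lin28a and control cells at P3. Each of these 10 combinations was 1 library with no replicate, so every difference below describes single libraries, and no test or error across cultures can be given.

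Imprinted genes are expressed mainly or only from the allele of one parent, and which allele is silent is set by DNA methylation laid down in the germ line. Many paternally expressed genes promote growth and many maternally expressed genes restrain it, and several imprinted transcripts are abundant in the embryonic brain. Dlk1, Meg3, Rian and the microRNA host transcript Mirg lie in a single domain on mouse chromosome 12, where Dlk1 is read from the paternal allele and the non-coding RNAs and their many microRNAs from the maternal allele. Igf2 and H19 are neighbours on chromosome 7 that share enhancers and an imprinting control region. The deposited values do not separate alleles, so a level is the sum over both. Grb10 is placed with the maternal group from its pattern in most mouse tissues, although it is known to be paternally expressed in mouse neurons.

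The microRNAs processed from these loci carry part of the pattern described below, and the most abundant are shown here with the seed, bases 2 to 8, in capitals. The sequences are mature microRNAs from RefSeq (build GRCm38.p6), written 5′ to 3′. The first 6 come from the Dlk1-Meg3 domain on chromosome 12, and the last 4 are the arms of miR-335, which lies within Mest, and of miR-409, whose arms were used unequally between libraries.
miR-127-3p: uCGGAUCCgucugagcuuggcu
miR-541-5p: aAGGGAUUcugauguuggucacacu
miR-434-3p: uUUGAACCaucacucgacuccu
miR-410-3p: aAUAUAACacagauggccugu
miR-411-5p: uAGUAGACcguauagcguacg
miR-381-3p: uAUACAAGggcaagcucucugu
miR-335-5p: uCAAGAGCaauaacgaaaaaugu
miR-335-3p: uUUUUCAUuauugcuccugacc
miR-409-5p: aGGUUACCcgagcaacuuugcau
miR-409-3p: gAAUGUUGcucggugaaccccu
None of these 10 shares its seed with another of them. Across the domain, 98 mature arms of 50 hairpins were counted, and the 94 arms with a sequence carried 89 different seeds, of which 5 were shared by 2 arms each.

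Levels are FPKM (fragments scaled to transcript length and library size) in RNA-seq and RPKM (reads scaled likewise) in polysome RNA. The 2 assays were quantified differently, so their levels are set side by side and only ratios within an assay are compared. A log2 ratio is taken on level + 1, where the gene reached 1 in either library, and a gene counts as higher or lower when it passes 2-fold on that scale. Lin28a itself stood at 104 FPKM in Lin28a cells and 0.0620 FPKM in control cells at P3, and at 478 FPKM in Lin28a cells and 0.128 FPKM in control cells at P1, as labelled. In each library, 12028 to 12461 genes were at 1 or more, and all 8 neural stem cell markers were detected. Their summed levels were 4104 FPKM in Lin28a and 6026 FPKM in control cells at P3. At P1 the sums were 3164 FPKM in Lin28a cells and 3474 FPKM in control cells. Fabp7, the highest of the 8 in each RNA-seq library, was at 1753 FPKM in Lin28a and 3418 FPKM in control cells at P3. By any amount, 5 of the 8 were higher and 3 lower in Lin28a cells at P3 (median log2 ratio 0.16). By passage, 4 were higher and 4 lower in each culture. Most endothelial and microglial markers were near the bottom of the range, with 4 of 6 and 5 of 6 under 1 in every library. The endothelial markers Kdr (up to 8.70 FPKM, in Lin28a cells at P1) and Flt1 (up to 4.31 FPKM, in control cells at P3) were not. The microglial marker Cd68 reached 1.64 FPKM in Lin28a cells at P3. Neuronal markers were not near 0 and are given beside the results they move with.

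At P3, 6 of the 10 imprinted genes were higher past 2-fold in Lin28a cells than in control cells, and 0 were lower. The 6 were Dlk1, Igf2, Meg3, H19, Rian and Grb10, with log2 ratios between 1.07 and 1.81. All 4 maternally expressed members were among them, against 2 of the 6 paternally expressed members. Over all 12716 genes compared, 1.31% were higher and 1.34% lower past 2-fold. The median log2 ratio was 1.45 for the maternal members and 0.31 for the paternal members, against -0.01 for all genes. Meg3 and Rian lie in a single domain, so the 4 maternal members are not 4 separate loci. Imprinted genes outside the 10 did not keep this order, with medians of 0.28 for 12 maternal genes and 0.41 for 17 paternal genes. At P1 the same 10 genes lay close together in the Lin28a and control cultures: 0 were higher and 0 lower past 2-fold, with log2 ratios from -0.28 for Ndn to 0.32 for Igf2. Few genes of any kind passed 2-fold at P1, 0.135% higher and 0.0955% lower of 12564.

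**Figure D1:**
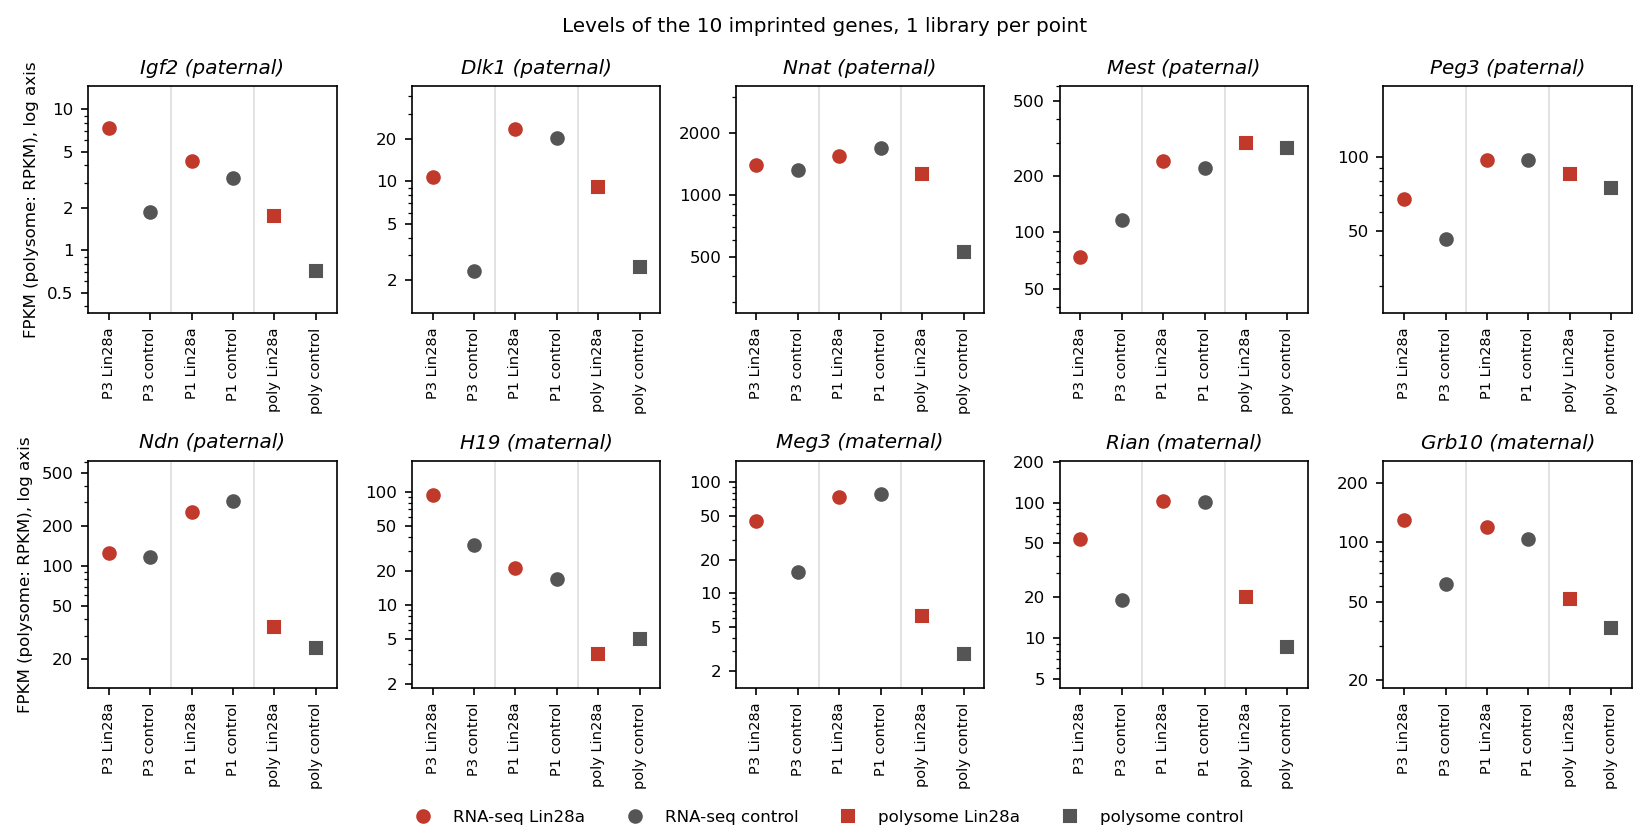
Level of each imprinted gene in every RNA-seq library (circles, FPKM) and polysome library (squares, RPKM), on a log axis, with Lin28a in red and control in grey and 1 library per point. Among the P3 circles the Lin28a point lies above the control point for 9 of 10 genes (all but Mest), and among the polysome squares for 9 of 10 (all but H19), while at P1 the points of a pair lie close together.

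The other axis of the design is passage, and most of the 10 genes were lower at P3 than at P1. In the control culture 5 were lower past 2-fold (Dlk1, Rian, Meg3, Ndn and Peg3) and 0 were higher, where 8.14% of 13011 genes were lower and 11.5% higher. In the Lin28a culture 3 were lower (Mest, Dlk1 and Ndn) and 1, H19, was higher, where 4.8% of 12850 genes were lower and 8.38% higher. The difference of these log2 ratios, Lin28a culture minus control culture, was above 1 for 5 members (Dlk1, Meg3, Rian, Igf2 and H19) and below -1 for 0, where 1.49% of 12723 genes lay above 1 and 0.755% below -1. Several of these calls lie near the limit: with 5 added to each level in place of 1, Dlk1 (-0.86) and Ndn (-0.99) were not past 2-fold by passage in the Lin28a culture, nor Peg3 (-0.996) in the control culture, and the difference between cultures was 0.92 for Dlk1 and 0.66 for Igf2. Because the P3 and P1 libraries enter both the virus and the passage comparisons, these counts are views of the same 4 libraries and not separate evidence.

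**Figure D2:**
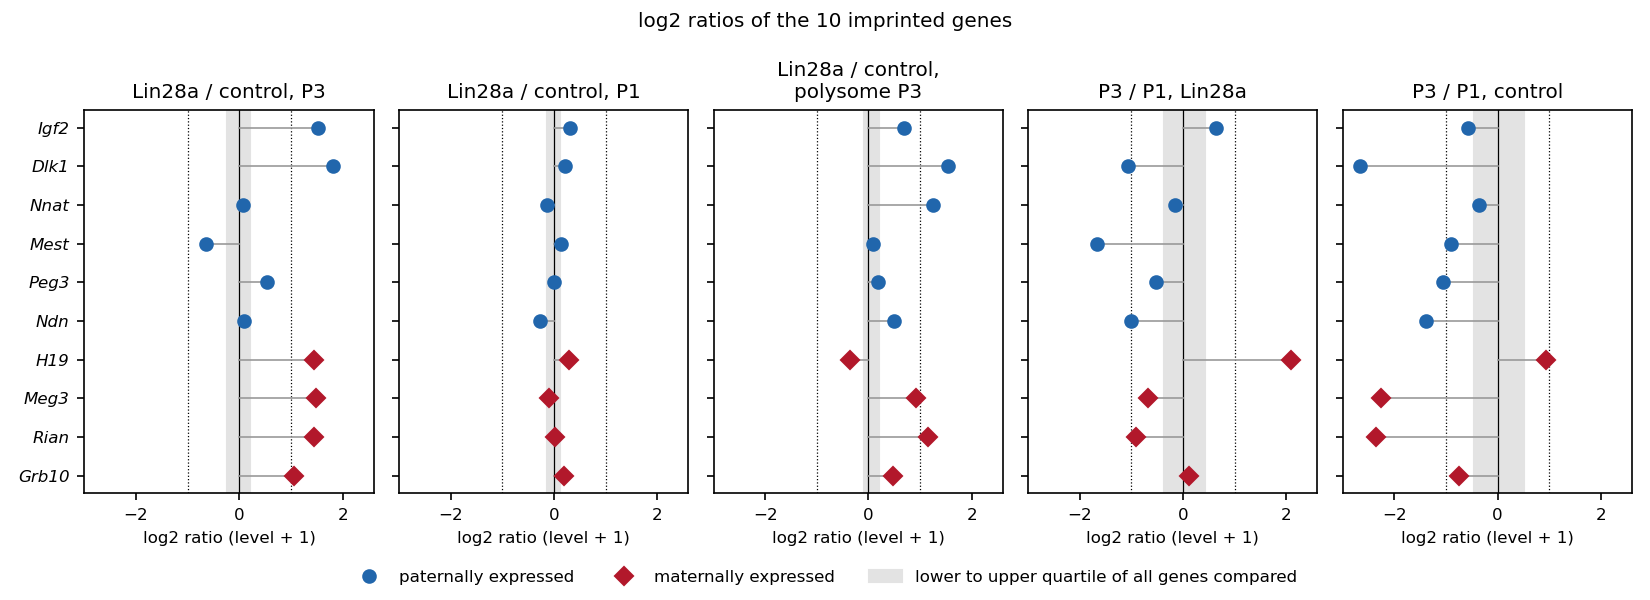
log2 ratios of the 10 genes in 5 comparisons, on level + 1, with paternally expressed genes as blue circles and maternally expressed genes as red diamonds. Dotted lines mark 2-fold and the grey band holds the genes compared between their lower and upper quartiles; all 4 maternal members lie right of the upper dotted line for Lin28a over control at P3 and none of the 10 does at P1.

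Among the paternally expressed genes, Dlk1 had the largest ratio at P3. Dlk1 is a transmembrane protein with EGF-like repeats that restrains differentiation of several precursor cells and is also expressed in midbrain dopamine neurons. It stood at 10.7 FPKM in Lin28a cells and 2.34 FPKM in control cells at P3, and at 23.5 FPKM in Lin28a cells and 20.2 FPKM in control cells at P1. Control cells at P3 were thus the low library. Without the added 1, the P3 ratio was 4.59-fold (log2 ratio on level + 1 of 1.81), against a log2 ratio of 0.21 at P1. By passage, the log2 ratio was -1.07 in the Lin28a culture and -2.67 in the control culture. In polysome RNA Dlk1 was at 9.07 RPKM in Lin28a cells and 2.49 RPKM in control cells, a log2 ratio of 1.53.

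Igf2 encodes the insulin-like growth factor 2, the main fetal growth factor of the family. It was among the lower members in level, at 7.29 FPKM in Lin28a cells and 1.87 FPKM in control cells at P3, and at 4.32 FPKM in Lin28a cells and 3.26 FPKM in control cells at P1. The highest and the lowest of these 4 values were both at P3. The P3 ratio was 3.90-fold (log2 ratio on level + 1 of 1.53), and the P1 log2 ratio was 0.32. Igf2 was higher at P3 than at P1 in the Lin28a culture (log2 ratio 0.64) and lower in the control culture (-0.57), neither past 2-fold. Polysome levels were 1.75 RPKM in Lin28a cells and 0.714 RPKM in control cells, with a log2 ratio of 0.68 that rests on values near the added 1. The P3 call also rests on that choice, since with 5 added the log2 ratio was 0.84.

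Nnat, the most abundant member, encodes a small proteolipid of the endoplasmic reticulum membrane in developing neural tissue. It ranked between 9 and 57 among all genes in the 4 RNA-seq libraries. RNA-seq gave 1402 FPKM in Lin28a cells and 1328 FPKM in control cells at P3, and 1557 FPKM in Lin28a cells and 1706 FPKM in control cells at P1, which are 4 similar values with log2 ratios of 0.08 at P3 and -0.13 at P1. The polysome libraries did not look alike, with 1264 RPKM in Lin28a cells and 528 RPKM in control cells, a log2 ratio of 1.26.

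Mest, an enzyme of the alpha/beta hydrolase family linked to fetal growth, was the only member lower in Lin28a cells at P3. Its levels were 74.4 FPKM in Lin28a cells and 117 FPKM in control cells at P3, and 239.6 FPKM in Lin28a cells and 219 FPKM in control cells at P1. Both P3 libraries were below both P1 libraries. The P3 log2 ratio of -0.65 did not pass 2-fold, and the ratio by passage was -1.67 in the Lin28a culture and -0.90 in the control culture. In polysome RNA the levels were 301 RPKM in Lin28a cells and 282 RPKM in control cells, with a log2 ratio of 0.09.

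Peg3, a zinc finger protein, was at 67.4 FPKM in Lin28a cells and 46.3 FPKM in control cells at P3, and at 96.9 FPKM in Lin28a cells and 97.3 FPKM in control cells at P1. Its P3 log2 ratio was 0.53, under 2-fold, and by passage it was -0.52 in the Lin28a culture and -1.06 in the control culture. Ndn encodes necdin, a MAGE family protein that promotes neuronal differentiation and survival. It was at 125 FPKM in Lin28a cells and 117 FPKM in control cells at P3, and at 253 FPKM in Lin28a cells and 307 FPKM in control cells at P1. For Ndn the cultures were alike at P3 (log2 ratio 0.09), and both were lower at P3 than at P1, with log2 ratios of -1.02 for Lin28a and -1.39 for control. In polysome RNA, Peg3 was at 85.6 RPKM in Lin28a cells and 75.2 RPKM in control cells, and Ndn at 34.7 RPKM in Lin28a cells and 24.3 RPKM in control cells.

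The maternally expressed Meg3 and Rian are long non-coding RNAs of the Dlk1-Meg3 domain, and Rian is also a host of small nucleolar RNAs. Meg3 was at 45.2 FPKM in Lin28a cells and 15.5 FPKM in control cells at P3, and at 73.3 FPKM in Lin28a cells and 78.0 FPKM in control cells at P1. Rian was at 53.5 FPKM in Lin28a cells and 18.99 FPKM in control cells at P3, and at 102 FPKM in Lin28a cells and 101 FPKM in control cells at P1. In both genes the P1 libraries were nearly equal and the P3 control library was the lowest. Ratios at P3 were 2.91-fold for Meg3 and 2.82-fold for Rian, with log2 ratios on level + 1 of 1.48 and 1.45. By passage the log2 ratios of Meg3 were -0.68 in the Lin28a culture and -2.26 in the control culture, and those of Rian were -0.92 in the Lin28a culture and -2.35 in the control culture. Mirg, a microRNA host RNA of the domain that is not one of the 10 genes, was lower in level but also lowest in the P3 control library. It was at 2.40 FPKM in Lin28a cells and 0.529 FPKM in control cells at P3. At P1 Mirg was at 4.82 FPKM in Lin28a cells and 3.71 FPKM in control cells, a ratio of 1.30-fold and so less equal than Meg3 and Rian. Its log2 ratio at P3 was 1.15. The paternally expressed Dlk1 and the maternally expressed Meg3, Rian and Mirg therefore had P3 ratios of the same sign.

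H19 is a long non-coding RNA that restrains growth and is the host of miR-675. It was at 93.5 FPKM in Lin28a cells and 33.6 FPKM in control cells at P3, and at 21.2 FPKM in Lin28a cells and 17.1 FPKM in control cells at P1. Both P3 libraries were above both P1 libraries, which set H19 apart from Meg3 and Rian. The ratio at P3 was 2.78-fold (log2 ratio 1.45), and the log2 ratio at P1 was 0.29. By passage it was 2.09 in the Lin28a culture and 0.93 in the control culture. H19 and its neighbour Igf2 were thus both higher in Lin28a cells at P3, with log2 ratios of 1.45 and 1.53, although in the control culture H19 was higher and Igf2 lower at P3 than at P1.

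Grb10 encodes an adaptor protein that binds the insulin and IGF1 receptors and dampens their signal. It was at 129 FPKM in Lin28a cells and 61.2 FPKM in control cells at P3, and at 119 FPKM in Lin28a cells and 104 FPKM in control cells at P1. Among these 4 values only the P3 control library was low. The P3 ratio was 2.11-fold, with a log2 ratio of 1.07 just past the 2-fold limit. By passage the log2 ratio was 0.12 in the Lin28a culture and -0.75 in the control culture.

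In polysome RNA at P3, 3 of the 10 genes were higher past 2-fold in Lin28a cells (Dlk1, Nnat and Rian) and 0 were lower, where 0.952% of 12289 genes were higher and 0.122% lower. Rian was at 20.1 RPKM in Lin28a cells and 8.53 RPKM in control cells, with a log2 ratio of 1.15. Meg3 was at 6.24 RPKM in Lin28a cells and 2.82 RPKM in control cells, with a log2 ratio of 0.92. With 5 added to each level in place of 1, Nnat alone stayed past 2-fold, with Dlk1 at 0.91 and Rian at 0.89. The non-coding Rian and Meg3 were thus also read in the polysome libraries, and which gradient fractions were pooled is not stated in the labels. Grb10 was at 51.5 RPKM in Lin28a cells and 36.6 RPKM in control cells, a log2 ratio of 0.48. H19 was the only member lower in Lin28a polysome RNA, at 3.72 RPKM against 5.02 RPKM in control cells, a log2 ratio of -0.35 where RNA-seq gave 1.45.

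To set the assays side by side, the RNA-seq log2 ratio was subtracted from the polysome log2 ratio wherever all 4 libraries reached 5, which 6 of the 10 genes met. Of these, 1 was above 1 (Nnat, 1.18) and 0 were below -1, where 0.358% of 7817 genes were above 1 and 0.0512% below -1. Mest followed at 0.74 and Ndn at 0.41, while Rian (-0.30), Peg3 (-0.35) and Grb10 (-0.59) were higher in RNA-seq ratio than in polysome ratio. The median over all genes was 0.07. Nnat lies within an intron of Blcap in the mouse annotation, and whether reads were assigned by strand is not stated in the labels. Igf2, Mest, Peg3, Ndn, Meg3, Rian and Grb10 also overlap another long annotated gene, so reads of those pairs may not be fully separated.

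The microRNAs of the Dlk1-Meg3 domain were counted in separate small RNA libraries with 6322534 to 8542827 mature microRNA counts each. How closely their levels follow those of the long maternally expressed transcripts was not tested. The domain's arms summed to 70737 CPM (counts scaled to 1e+06 microRNA counts) in Lin28a cells and 29072 CPM in control cells at P3, and to 129587 CPM in Lin28a cells and 99919.6 CPM in control cells at P1. They therefore made up 7.07% of all microRNA counts in Lin28a cells and 2.91% in control cells at P3, and 12.96% in Lin28a cells and 9.99% in control cells at P1. The P3 ratio of Lin28a to control was 2.43 (95% interval 2.42 to 2.44) and the P1 ratio 1.30 (1.29 to 1.30). These exact binomial intervals cover counting error only, and reads amplified by PCR are not independent molecules. CPM also depend on the other microRNAs of a library. Scaling without let-7 and miR-98 gave a lower P3 ratio and fewer domain arms past 2-fold, as given in the last section. By passage, P3 over P1, the ratio was 0.546 in the Lin28a culture and 0.291 in the control culture. Without miR-127-3p, the most abundant arm, the ratios were 2.55 at P3 and 1.10 at P1.

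Counted arm by arm, 44 of the 65 domain arms compared at P3 were higher past 2-fold in Lin28a cells and 0 were lower, and 64 of 65 were higher by any amount. Of all 414 microRNA arms compared, 15.5% were higher and 12.1% lower past 2-fold, which is 64 and 50 arms, so the domain held 44 of the 64. At P1, 5 of 71 domain arms were higher and 2 lower past 2-fold, where 2.66% of all arms were higher and 4.35% lower. In the control culture 53 of 67 domain arms were lower at P3 than at P1 and 0 higher, where 29.0% of all arms were lower and 27.1% higher. The Lin28a culture had 10 of 68 domain arms lower, where 17.7% of all arms were lower. The median domain log2 ratio by passage was -0.76 in the Lin28a culture and -1.70 in the control culture.

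**Figure D3:**
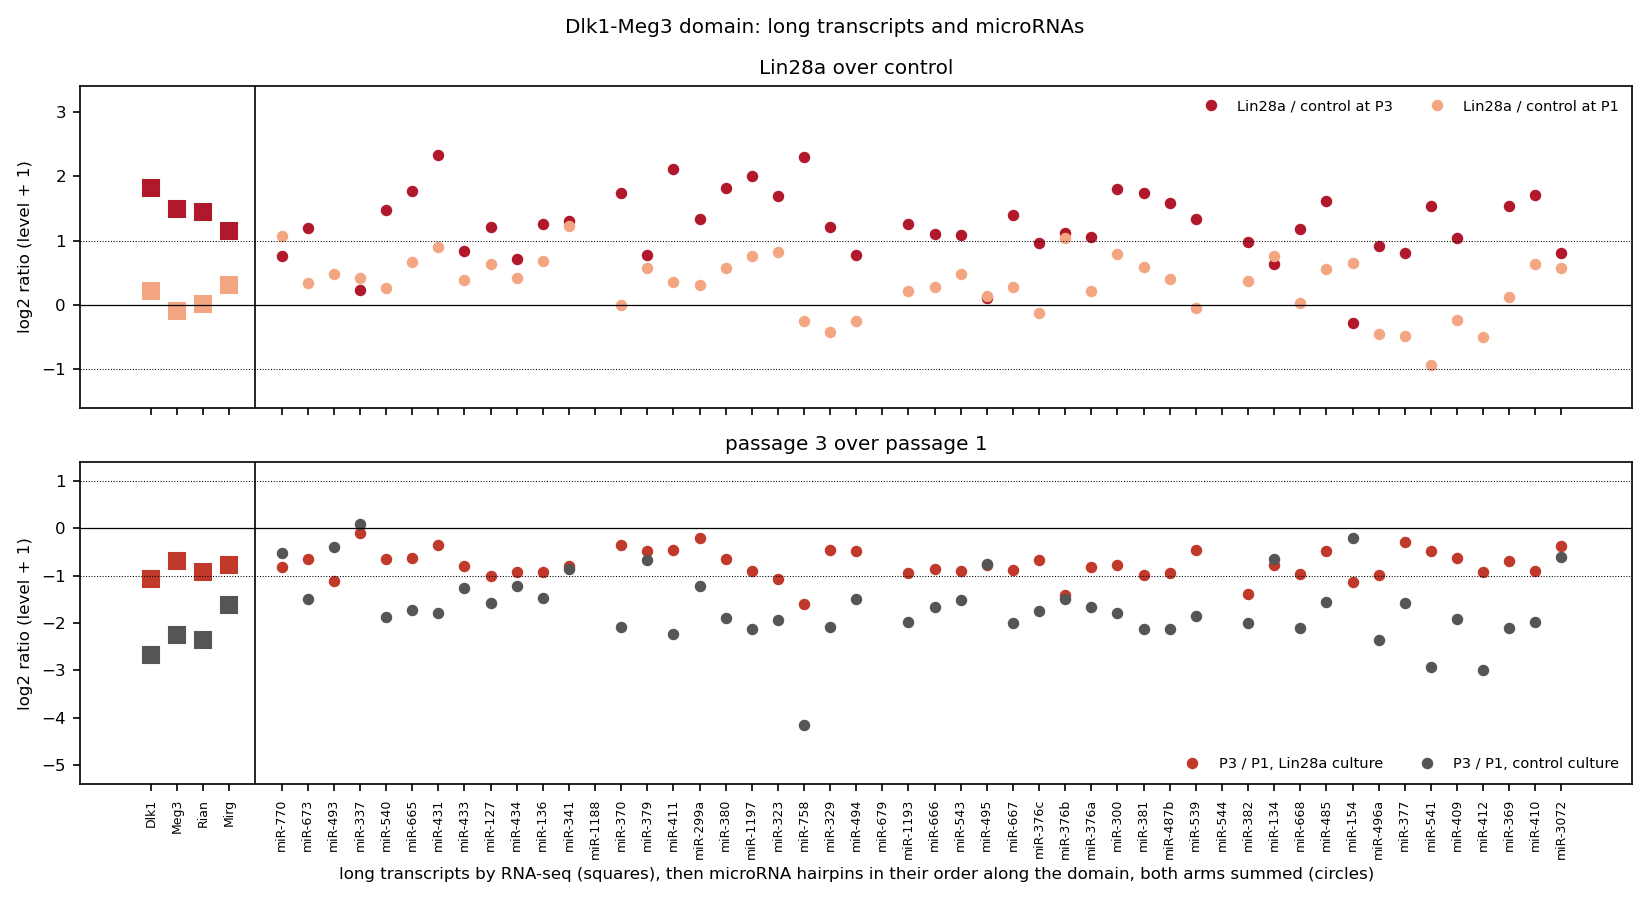
log2 ratios on level + 1 in the Dlk1-Meg3 domain, for 4 long transcripts by RNA-seq (squares) and for microRNA hairpins with both arms summed, in their order along the domain (circles); hairpins below 10 CPM in both libraries have no point. The upper panel sets Lin28a over control at P3 and at P1, and 44 of 45 hairpins lie above 0 at P3, with miR-154 the exception; the lower panel sets P3 over P1, where most control points lie below the Lin28a points.

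The most abundant arm, miR-127-3p, was at 33554 CPM in Lin28a cells and 14518 CPM in control cells at P3, and at 67254 CPM in Lin28a cells and 43143 CPM in control cells at P1. Its order of libraries was P1 Lin28a, P1 control, P3 Lin28a and P3 control, from high to low. For miR-410-3p the levels were 6195 CPM in Lin28a cells and 1889 CPM in control cells at P3, and 11490.2 CPM in Lin28a cells and 7427 CPM in control cells at P1. The arm miR-411-5p had a wider P3 contrast, at 4713 CPM in Lin28a cells and 1057 CPM in control cells, against 6642 CPM in Lin28a cells and 5188 CPM in control cells at P1. For miR-381-3p the levels were 2262 CPM in Lin28a cells and 679 CPM in control cells at P3, and 4505 CPM in Lin28a cells and 2984 CPM in control cells at P1. In each of these 4 arms the P3 control library was the lowest.

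The arms miR-541-5p and miR-434-3p, also among the most abundant, had another contrast at P1 or P3, although the P3 control library was again the lowest. miR-541-5p was higher in control than in Lin28a cells at P1, with 9262 CPM in Lin28a cells and 17617 CPM in control cells, and the reverse held at P3, with 6689 CPM in Lin28a cells and 2314 CPM in control cells. miR-434-3p kept the order of miR-127-3p but had almost equal ratios of Lin28a to control at both passages, 1.51 at P3 and 1.55 at P1. Among arms of lower count, the largest P3 log2 ratios were those of miR-299a-5p (2.96), miR-431-5p (2.37), miR-758-3p (2.30) and miR-370-5p (2.26). The largest log2 ratio by passage in the control culture was that of miR-758-3p, at -4.15, with 47.5 CPM at P3 and 858 CPM at P1.

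Set by position, the summed ratio of Lin28a to control at P3 was 1.74 for the hairpin inside Meg3, 2.17 for the 10 between Meg3 and Rian, 2.75 for the 3 inside Rian, 3.23 for the 27 between Rian and Mirg and 2.87 for the 9 inside Mirg. All 5 groups were thus higher in Lin28a cells at P3. At P1 the group inside Mirg was at 0.839, below 1, while the others lay between 1.36 and 2.15. Its P1 sum contains miR-541-5p. The hairpin inside Meg3, miR-770, was rare, with 212 counts in Lin28a cells and 118 in control cells at P3.

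The other loci gave miR-335, which was abundant, and miR-675 and miR-483, which were rare. Both arms of miR-335, within Mest, summed to 9892 CPM in Lin28a cells and 7425 CPM in control cells at P3, and to 15622 CPM in Lin28a cells and 16309 CPM in control cells at P1. At P3 miR-335 was 1.33-fold (95% interval 1.32 to 1.35) as abundant in Lin28a as in control cells, while its host Mest was the lower one in Lin28a cells. miR-675, which is processed from H19, had 16 counts in Lin28a cells and 5 in control cells at P3, and 6 in Lin28a cells and 1 in control cells at P1. The P3 ratio of 3.10 had a counting interval of 1.09 to 10.8, so its size is poorly set at this depth. miR-483, within Igf2, had 2 counts in Lin28a cells and 4 in control cells at P3, and 16 in Lin28a cells and 4 in control cells at P1.

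The small RNA libraries also differed in which arm of a hairpin was read, and this touches the arm-by-arm ratios. Of 23 hairpins of these loci with 500 or more counts, the share of reads on the 5p arm spanned over 20 percentage points across the 4 libraries in 4 (miR-299a, miR-335, miR-369 and miR-409), against 16 of all 146 such hairpins. The 5p share of miR-409 was 23.2% in Lin28a and 25.8% in control cells at P3, and 22.6% in Lin28a and 59.6% in control cells at P1. For miR-335 it was 23.3% in Lin28a and 27.4% in control cells at P3, and 24.2% in Lin28a and 49.5% in control cells at P1. In both hairpins the P1 control library stood apart. miR-299a instead stood apart in the P3 control library, with 51.4% in Lin28a and 15.6% in control cells at P3 and 44.9% in Lin28a and 51.3% in control cells at P1. The part of arm use in the single-arm ratios was not tested, and sums over both arms do not depend on it.

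**Figure D4:**
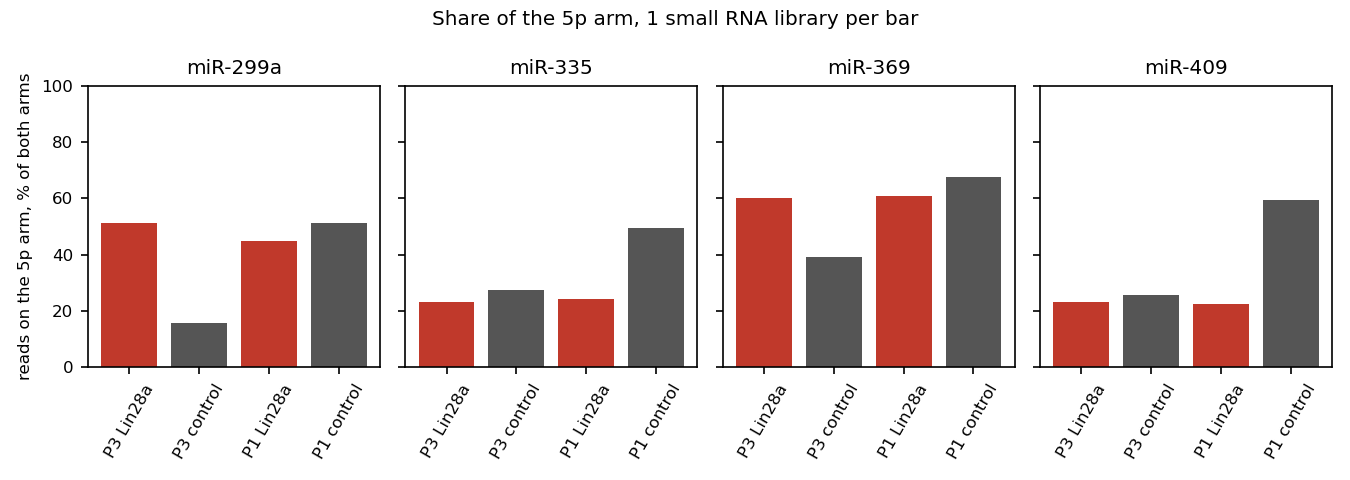
Reads on the 5p arm as a percentage of both arms, for the 4 hairpins of these loci whose share spanned over 20 percentage points, with 1 small RNA library per bar, Lin28a in red and control in grey. The P1 control bar is the tall one for miR-335 and miR-409, and the P3 control bar the short one for miR-299a and miR-369.

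Because Dlk1, Meg3 and Rian had ratios of the same sign and like size, the 250 bases before 2 of their annotated starts are shown, from RefSeq promoters of build GRCm38.p6 on the + strand of chromosome 12. Capitals mark matches, on either strand, to the cAMP response element TGACGTCA, to the TATA box, read as TATAAA, to the CCAAT box by its own letters, and to the GC box, read as GGGCGG. The first start of Meg3, chr12:109540746-109540995, held 1 cAMP response element, 1 CCAAT box and 2 TATA boxes that overlap on opposite strands, and the Dlk1 sequence, chr12:109452573-109452822, held none of the 4.
Meg3: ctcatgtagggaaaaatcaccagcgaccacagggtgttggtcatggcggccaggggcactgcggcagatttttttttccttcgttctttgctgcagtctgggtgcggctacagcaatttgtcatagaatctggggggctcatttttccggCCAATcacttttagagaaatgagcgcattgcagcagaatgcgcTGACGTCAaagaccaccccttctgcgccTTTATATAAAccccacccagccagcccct
Dlk1: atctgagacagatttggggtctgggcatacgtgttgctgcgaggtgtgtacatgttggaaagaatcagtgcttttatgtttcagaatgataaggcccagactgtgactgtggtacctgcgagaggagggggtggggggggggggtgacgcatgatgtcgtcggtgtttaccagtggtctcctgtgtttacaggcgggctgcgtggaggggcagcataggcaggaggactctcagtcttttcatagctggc
Over 32851 promoter sequences of the same length, 1.55% held the cAMP response element, 12.4% the TATA box, 33.8% the CCAAT box and 32.7% the GC box. The second annotated start of Meg3 and the Rian sequence held none of the 4 either, while that of Peg3, which was not past 2-fold at P3, held 1 cAMP response element and 2 CCAAT boxes. A match is a description of the letters and says nothing about binding, and no binding data were analysed here.

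Neuronal markers moved with the Dlk1-Meg3 genes and are given as measured. Their 11 genes, among them Tubb3, Dcx and Syt4, summed to 482 FPKM in Lin28a cells and 279.9 FPKM in control cells at P3, and to 929 FPKM in Lin28a cells and 1098 FPKM in control cells at P1. At P3, 5 of 10 compared were higher past 2-fold in Lin28a cells and 0 lower (median log2 ratio 0.98). Over all genes at P3, 1.31% were higher and 1.34% lower. By passage 7 of 11 were lower past 2-fold in the Lin28a culture and 10 of 11 in the control culture. Over all genes, 4.8% were lower by passage in the Lin28a culture and 8.14% in the control culture. All 11 were lower by any amount in Lin28a cells at P1 (median -0.27), where Dlk1 was higher (0.21) and Meg3 lower (-0.09). Dopamine neuron markers summed to 26.3 FPKM in Lin28a cells and 16.6 FPKM in control cells at P3, and to 49.9 FPKM in Lin28a cells and 57.9 FPKM in control cells at P1. The part of neuronal cells in the ratios was not tested, and in bulk RNA fewer cells of a type and less RNA per cell cannot be told apart.

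Mesenchymal and meningeal markers, the other cells known for high Igf2, H19 and Dlk1, summed to 61.1 FPKM in Lin28a cells and 48.2 FPKM in control cells at P3, and to 83.7 FPKM in Lin28a cells and 86.2 FPKM in control cells at P1. Of 14 such genes, 3 (Foxc1, Foxc2 and Aldh1a2) were under 1 in every library, and of 8 compared at P3, 2 were higher past 2-fold (Fbln1 1.15 and Dcn 1.03) and 1 lower (Thy1 -1.16), none of which passed 2-fold with 5 added. Their part in the Igf2 and H19 ratios was not tested. Astroglial markers, summing to 923 FPKM in Lin28a and 1534 FPKM in control cells at P3, were lower past 2-fold in 2 of 7 cases and lower by any amount in 7 (median log2 ratio -0.67). Oligodendrocyte lineage markers summed to 1260.2 FPKM in Lin28a cells and 2059 FPKM in control cells at P3, with 1 of 8 lower past 2-fold and all 8 lower by any amount (median -0.58). The shares of all genes at P3 were 1.31% higher and 1.34% lower past 2-fold. Pericyte and smooth muscle markers summed to 263 FPKM in Lin28a cells and 429.7 FPKM in control cells at P3, mostly from Acta2 and Tagln. Of 7 such genes, 2 were under 1 in every library. Of the 4 compared at P3, 1 was higher (Pdgfrb, log2 ratio 0.60) and 3 lower by any amount in Lin28a cells (median -0.40). By passage all 7 astroglial and all 8 oligodendrocyte lineage markers were higher past 2-fold at P3 than at P1 in both cultures, while most of the 10 imprinted genes were lower. Over all genes, 8.38% were higher past 2-fold by passage in the Lin28a culture and 11.5% in the control culture. The median log2 ratio of the astroglial markers was 3.04 in the Lin28a culture and 3.19 in the control culture, and that of the oligodendrocyte lineage markers 5.04 in the Lin28a culture and 4.90 in the control culture. The part of these cells in the passage ratios was not tested.

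Imprinted genes outside the 10 are read against the same shares of all genes, 1.31% higher at P3 and 8.14% lower by passage in the control culture. Of 20 further genes known as maternally expressed in at least some mouse tissues, 12 were compared at P3. Of these, 1 (Mirg) was higher past 2-fold and 0 lower, with a median log2 ratio of 0.28. Of 20 further paternally expressed genes, 17 were compared, and 2 were higher (Snurf 4.14 and Peg10 1.07) and 0 lower, with a median of 0.41. Snurf shares a transcript with Snrpn, which had a log2 ratio of -0.83, so the split of reads between the pair is uncertain. Peg10, a retrotransposon-derived gene, was at 80.3 FPKM in Lin28a cells and 37.8 FPKM in control cells at P3. With 5 added to each level in place of 1, Mirg (0.42) and Peg10 (0.99) were not past 2-fold. By passage in the control culture, 9 of 17 paternal genes were lower past 2-fold and 1 higher (median -1.11), with Magel2 at -2.72, Peg10 at -2.20 and Plagl1 at -2.09. Among 14 maternal genes 4 were lower and 0 higher (median -0.57). In polysome RNA, 1 of 11 maternal genes and 1 of 16 paternal genes were higher past 2-fold and 0 lower. Over all genes in polysome RNA, 0.952% were higher and 0.122% lower. The maternal one was Cdkn1c, a cell cycle inhibitor, with a log2 ratio of 1.02, at 14.1 RPKM in Lin28a cells and 6.43 RPKM in control cells. The paternal one was Magel2, a MAGE family gene, with a log2 ratio of 1.16, at 2.06 RPKM in Lin28a cells and 0.374 RPKM in control cells. Neither was past 2-fold with 5 added (Cdkn1c 0.74 and Magel2 0.39).

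Genes of the IGF pathway did not move as a block. At P3, 2 of 14 compared were higher past 2-fold in Lin28a cells (Igf2bp1 1.68 and Igf2bp2 1.37, which encode proteins that bind Igf2 mRNA) and 1 was lower (Igfbp3 -1.56, a binding protein of the growth factors), with Igfbp4 next at -0.99. With 5 added Igf2bp1 was at 0.85. Over all genes at P3, 1.31% were higher and 1.34% lower. The receptors Igf1r and Igf2r had log2 ratios of 0.42 and 0.46 at P3. At P1, 1 of 15 was higher past 2-fold and 0 lower, where 0.135% of all genes were higher and 0.0955% lower. That gene was Igf2bp1 (1.21, at 23.4 FPKM in Lin28a cells and 9.53 FPKM in control cells), and Igf2bp2 was at 0.59. With 5 added to each level, Igf2bp1 was just under 2-fold at P1 too. By passage, 4 of 14 were higher and 1 lower in the Lin28a culture, and 5 of 16 higher and 3 lower in the control culture. Over all genes, 8.38% were higher and 4.8% lower in the Lin28a culture, and 11.5% higher and 8.14% lower in the control culture. Of 8 genes linked to setting, keeping or reading methylation imprints, 7 were compared at P3 and 0 were past 2-fold. All 7 were higher by some amount (median 0.30, highest Zfp57 at 0.72). In the control culture 3 of 8 were lower past 2-fold at P3 than at P1 (Zfp57 -1.54, Uhrf1 -1.28 and Dnmt1 -1.20), against 8.14% of all genes. In the Lin28a culture 0 of 8 were lower past 2-fold, but 7 were lower by any amount, with a median of -0.80 in the Lin28a culture and -0.65 in the control culture.

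The genes whose pattern lay closest to each member were named from the smallest Euclidean distance over 4 log2 ratios, those of Lin28a to control at P3, at P1 and in polysomes and of P3 to P1 in the control culture. Nearest to Dlk1 were Stmn4 (distance 0.33), Rmst (0.41) and Lmx1b (0.44). Rian had Lmx1a (0.19) and Runx1t1 (0.21), and Meg3 had Sox11 (0.24), Efcab1 (0.25) and Rian itself (0.26). For Igf2 they were Igf2bp2 (0.33), Prrg3 (0.50) and Grb10 (0.55), and for Grb10 they were Capn6 (0.14), Zbtb26 (0.20) and Prrg3 (0.20). Mest lay near Aard (0.26), Ung (0.29) and Pcna (0.39), the last 2 being DNA repair and replication genes. H19 had no close neighbour, the nearest being Ndnf (0.84), Fzd7 (0.85) and Sema3a (0.87). Nnat had Gm4532 (0.32), Hpgd (0.40) and Bex4 (0.43), Peg3 had Pbrm1 (0.09), Rnf219 (0.09) and Ssh2 (0.10), and Ndn had Hap1 (0.13), Nap1l2 (0.19) and Fbxo16 (0.19).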

How the data were processed

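Members were matched by symbol in the 4 RNA-seq and 2 polysome tables. The RNA-seq values were deposited by the authors as 1 value per RefSeq gene and are read here as FPKM, from the values and from Cufflinks 2.1.1, named with Bowtie 1.0.0, TopHat2 2.0.6 and genome build mm9 in the submitters' processing notes. The polysome values deposited by the authors in the same layout are read as RPKM. Depth is unknown for both. Per the file headers, the small RNA tables hold counts of reads assigned to mature microRNAs. These were deposited unnormalized and were scaled here to CPM of all mature microRNA counts in a library. No columns belonged to other samples (0 found).

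With 1 library per group no test was run. log2 ratios used a pseudocount of 1, a filter of 1 in at least 1 of the 2 libraries (10 CPM for microRNAs) and a limit of 2-fold. Ratios of microRNA counts carry exact conditional binomial 95% intervals. Domain microRNAs were the hairpins on the + strand from the start of Meg3 to the end of Mirg in the RefSeq table of GRCm38, matched by name; that table served for names and order only, the printed sequences apart. Alternatives were other pseudocounts, filters and scalings. All 10 members are named in every library, up to 4 genes of each other list by size of ratio, and 3 nearest genes per member, of which 1 is not reported here; Tubb3, Dcx, Syt4, Igf1r, Igf2r and the single microRNAs described beyond the largest were named after their values were seen. The members and lists were chosen with earlier results of these data known. The tools were Python 3.11.15 with pandas 2.3.3 and numpy 2.4.6 for tables, scipy 1.17.1 for intervals and matplotlib 3.10.9 for plots, and the ratio script was tested on simulated data.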

Additional observations from a re-analysis of the deposited data

Results flagged for a closer look

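In 3 cases a member's ratios ran in opposite directions in 2 settings and lay more than 2-fold apart. With 1 library per group none of these differences was tested. Igf2 had a log2 ratio of P3 to P1 of 0.64 in the Lin28a culture and -0.57 in the control culture, a difference of 1.21. H19 had a log2 ratio of Lin28a to control of -0.35 in polysome RNA and 1.45 in RNA-seq at P3, a difference of -1.80, with polysome levels of 3.72 RPKM in Lin28a cells and 5.02 RPKM in control cells. Meg3 had a log2 ratio of Lin28a to control of 1.48 at P3 and -0.09 at P1, a difference of 1.57, where the P1 value was close to 0.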

How the results depend on the processing

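Of the summary values, 97 recomputed ones were classed as the same, among them the 6 members higher at P3 under 0.1 as pseudocount, and 5 counts moved. A count was classed as the same when equal or within 1.5 times, and a summed microRNA ratio when on the same side of 1 and of 2-fold. With a pseudocount of 5, the members lower at P3 than at P1 in the Lin28a culture numbered 1 instead of 3, those higher in Lin28a polysome RNA 1 instead of 3, and those above 1 in the difference between cultures 3 instead of 5. A larger pseudocount shrinks the ratios of low genes by construction. With a pseudocount of 0.1, 5 members instead of 3 were higher in Lin28a polysome RNA, Igf2 (1.18) and Meg3 (1.12) being added. With a filter of 1 in all 4 libraries, 1 member instead of 0, H19 at -1.80, lay below -1 in polysome minus RNA-seq ratio; this filter admits low genes. No ratio past 2-fold was reversed in direction, while 1 member ratio that was not past 2-fold changed sign. Members that lost a call with a pseudocount of 5 were Igf2 at P3 (0.84) and Peg3 by passage in control (-0.996). By passage in Lin28a they were Dlk1 (-0.86) and Ndn (-0.99), and in polysome RNA Dlk1 (0.91) and Rian (0.89). In the difference between cultures they were Igf2 (0.66) and Dlk1 (0.92). Among other named genes, Mirg, Peg10, Igf2bp1, Fbln1, Dcn and Thy1 lost a call at P3. So did Igf2bp1 at P1 and Cdkn1c and Magel2 in polysome RNA. Upper quartile scaling moved the median log2 ratio of all genes by passage in the control culture to -0.11, where Mest was at -1.02. Scaled without let-7 and miR-98, 37 domain microRNA arms instead of 44 were higher at P3 and the summed ratio was 2.19. No paired analysis was possible because each group had 1 library and the labels give no replicate numbers. Spread between cultures is not known, so a 2-fold limit is a rule of size.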
